A study of Mus musculus with 4 samples.

Results

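The enzymes described here make prostaglandins and leukotrienes from arachidonic acid, and their RNA was followed across 4 preparations of BALB/c mouse mast cells. The members were 10 genes chosen by name: Pla2g4a, Ptgs1, Ptgs2, Hpgds, Ptgds, Ptges, Alox5, Alox5ap, Ltc4s and Lta4h. The platform annotation listed 9 of them, with 11 probe sets in all, among 22180 genes named by a single symbol. Ptgs1 had no probe set under its symbol or gene identifier in that annotation and was not analysed here.

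Each group was 1 Affymetrix array. For 3 groups, bone marrow was cultured into mast cells (BMMCs) over 3 to 4 weeks, with 10 ng/ml each of stem cell factor and interleukin-3, and the cells then spent 6 days in 1 of 3 conditions. These were plain medium (control), TGF-beta1 at 5 ng/ml, or coculture with Chinese hamster ovary (CHO) cells carrying mouse Dll1, a membrane ligand of Notch receptors. The Dll1 cells were afterwards selected for c-Kit with magnetic beads. The fourth group was mucosal mast cells of the small intestinal lamina propria of naive mice, sorted by flow cytometry for FceRI and c-Kit. Per the labels, no mouse carried a named mutation; sex, age and animal numbers are not given in those labels. Coculture and bead selection cannot be told apart from the Notch ligand, nor can digestion, sorting and tissue source from the intestinal state. A single array per group leaves no replicate error, so there are no p-values.

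Mast cells release arachidonic acid from membrane phospholipids when their IgE receptor is engaged. Cyclooxygenases turn it into prostaglandin H2, from which a terminal synthase makes prostaglandin D2, the main prostanoid of mast cells, or prostaglandin E2. In the other branch, 5-lipoxygenase and its helper protein FLAP make leukotriene A4, which leukotriene C4 synthase joins to glutathione and leukotriene A4 hydrolase turns into leukotriene B4. Prostaglandin D2 and leukotriene C4 are known as mediators of smooth muscle contraction and leak of small vessels in allergy.

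Of the 9 measured members, 2 differed by at least 2-fold between any of the arrays, and both stood apart on the intestinal one. Ptgs2 was at least 10.1-fold higher in intestinal mast cells than in control BMMCs, a bound of 3.34 on the log2 scale that became 2.51 with a stricter background limit. Alox5 was 2.96-fold lower by its brighter probe set. Among all genes tested in that comparison, 4.47% were at least 2-fold higher and 6.74% lower, so a single member in each direction is near the background. The other 7 members differed from control by at most 1.62-fold in intestinal cells. No member reached 2-fold against control with TGF-beta1 (0.507% of all genes higher, 0.89% lower) or with Dll1 (1.64% higher, 1.78% lower).

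The promoters of Ptgs2, Alox5 and Hpgds are shown because these were the members with the widest range over the 4 arrays. Each is the 250 bases before the gene's start, from RefSeq on GRCm38.p6, 5′ to 3′ on the gene's strand. That assembly is of C57BL/6J, not of BALB/c. Capitals mark the letters of a motif from a fixed list, read on either strand.
Ptgs2, chr1:150099781-150100030, plus strand: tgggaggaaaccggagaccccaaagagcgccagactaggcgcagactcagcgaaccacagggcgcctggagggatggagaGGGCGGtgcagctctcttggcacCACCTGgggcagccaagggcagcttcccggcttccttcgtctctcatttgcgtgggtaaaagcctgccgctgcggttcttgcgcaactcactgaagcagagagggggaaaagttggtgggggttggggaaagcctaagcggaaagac
Alox5, chr6:116461179-116461428, minus strand: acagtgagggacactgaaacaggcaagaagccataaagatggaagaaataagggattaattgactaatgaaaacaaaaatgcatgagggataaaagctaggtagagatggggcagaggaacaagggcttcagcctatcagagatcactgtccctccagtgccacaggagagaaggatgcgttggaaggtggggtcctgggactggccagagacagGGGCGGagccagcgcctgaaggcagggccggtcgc
Hpgds, chr6:65144731-65144980, minus strand: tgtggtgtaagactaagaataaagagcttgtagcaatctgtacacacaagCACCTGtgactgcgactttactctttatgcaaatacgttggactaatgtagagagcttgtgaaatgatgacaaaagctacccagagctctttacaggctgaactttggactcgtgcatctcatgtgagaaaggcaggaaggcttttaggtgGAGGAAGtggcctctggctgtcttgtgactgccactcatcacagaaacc

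The Ptgs2 window held a GC box (GGGCGG) that begins 170 bases before the start and the E-box CAGGTG, on the other strand, 147 bases before it. The Alox5 window held a GC box 35 bases before the start and no other letters of the list. The Hpgds window held the same E-box 200 bases before the start and the ETS letters GAGGAAG 49 bases before it. Of 32851 promoter windows in the table, 32.7% held the GC box, 17.2% held CAGGTG and 10.6% held GAGGAAG, and these shares are the background for the matches. The windows also differed in base composition, with 61.6% G and C and 13 CpG pairs for Ptgs2, 52.8% and 5 for Alox5, and 45.2% and 3 for Hpgds, beside medians of 52.4% and 6 over all windows.

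The other motifs searched were the TATA box TATAAA, the GATA factor letters AGATAA, the related GATA letters TGATAA, the cAMP response element part TGACGT, the AP-1 letters TGANTCA, the RBPJ letters GTGGGAA, the SMAD letters CAGACA and the MITF and USF E-box CACGTG. None of them lay in those 3 windows. When the 50 bases after the start were added, a choice made after the sequences had been seen, Ptgs2 gained TGACGT, part of the cAMP response element, on the other strand 12 bases after the start. It also gained CACGTG 16 bases after the start, overlapping the former. Hpgds gained CAGACA 6 bases after the start, and Alox5 gained no match. Of all windows of that length, 7.51% held TGACGT, 7.15% held CACGTG and 21% held CAGACA. The table had promoters for 9 members, Ptgs1 included, and none for Alox5ap. Among the other members, GTGGGAA, the letters of the Notch factor RBPJ, lay in the Ptges window alone (5.42% of all windows), and CAGACA, a SMAD sequence, in that of Lta4h alone (17.1%), both within the 250 bases. Ltc4s had no match there and gained GAGGAAG 15 bases after the start, which 13.6% of the longer windows held. Pla2g4a had 2 promoters listed, and only the second held matches. These were TATAAA, on the other strand 200 bases before the start, and TGATAA. Ptges held GGGCGG, Ptgds TGANTCA and Ptgs1 GAGGAAG. These matches describe letters and not binding.

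Levels are log2 values and are compared between arrays within a gene. Background was judged from 1443 probe sets for receptors of smell, pheromones and taste, whose 95th percentile gave limits of 5.12 for control, 5.21 for TGF-beta1, 5.13 for Dll1 and 5.11 for intestinal cells. A gene counted as tested if either array of a comparison had it above the limit. It was called where the difference was at least 2-fold with values under the limit raised to it. As a gauge of technical spread, the standard deviation between the differences of 2 probe sets of a gene, both above the limit on all arrays, was taken over 311 genes. Against control it came to 0.24 under TGF-beta1, 0.33 under Dll1 and 0.46 in intestinal cells. Differences between cultures or animals are not part of it. Nor is error shared by both probe sets, which were read on the same arrays. Of 11 mast cell genes, 10 were above the limit on every array, among them Kit (11.75 to 12.65), Fcer1a (11.66 to 12.41) and Cpa3 (12.76 to 13.11). The proteases differed more: in intestinal cells Tpsb2 was 40.6-fold and Cma1 31.1-fold lower than in control BMMCs, and Mcpt1 was under the limit in control alone (4.82, against 12.72 in intestinal cells). The median over the 11 was -0.63 for intestinal cells minus control, beside -0.005 over all genes tested.

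**Figure D1:**
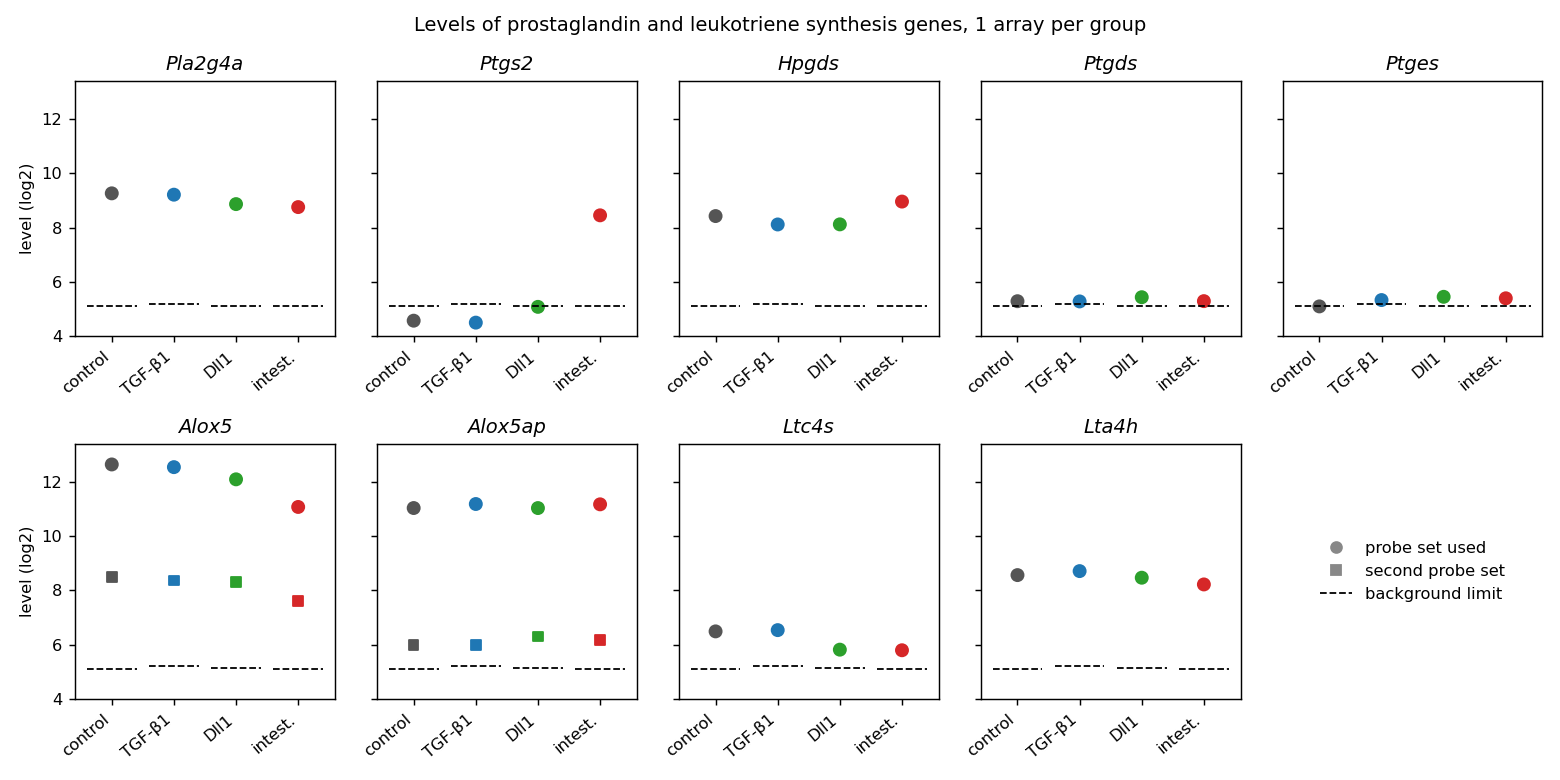
Each panel plots the log2 level of 1 gene on the 4 arrays, 1 point per array, with squares for a second probe set and dashes for each array's background limit. Ptgs2 is above the limit on the intestinal array alone (8.46), and Alox5 is lowest there by both of its probe sets.

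Pla2g4a encodes the cytosolic phospholipase A2 that releases arachidonic acid. It read 9.27 in the control culture, 9.22 under TGF-beta1, 8.87 under Dll1 and 8.76 in intestinal cells. All 4 values were well above the limit, and they fell into a higher pair (control and TGF-beta1, 0.05 apart) and a lower pair (Dll1 and intestinal, 0.11 apart). The step between the pairs, 0.35, was slightly past the probe-set spread for those arrays (0.32). Intestinal minus control was -0.51, and 17.4% of the genes tested had a lower difference.

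Ptgs2, the inducible cyclooxygenase, read 4.58 in the control culture, 4.51 under TGF-beta1, 5.09 under Dll1 and 8.46 in intestinal cells. The first 3 values were under the limit, the Dll1 value by a small margin, so their order is not informative. Against control, Ptgs2 had the 54th highest of 12722 differences. It was at least 9.50-fold higher in intestinal cells than with TGF-beta1 and at least 10.1-fold higher than with Dll1. Because it entered the comparison only through the array on which it was high, it could be called in no other direction.

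Ptgs2 has the protein-coding neighbour Pla2g4a in the RefSeq gene order on chromosome 1. On the intestinal array Ptgs2 was at its highest of the 4 values and Pla2g4a at its lowest. The Pla2g4a value was only 0.11 under that with Dll1, within the spread of 0.40. Against control Pla2g4a was -0.51 there, and 30.0% of the genes tested were at least as far from 0. Ptgs2os, the transcript from the opposite strand of the Ptgs2 locus, was looked at after the values had been seen. It read 4.60, 4.68, 4.79 and 4.80 from control to intestinal cells, under the limit on every array.

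Hpgds, the hematopoietic synthase of prostaglandin D2, read 8.43 in the control culture, 8.12 under TGF-beta1, 8.13 under Dll1 and 8.96 in intestinal cells. It was highest in intestinal cells, and the gap to control, the next array, was 0.53 against a probe-set spread of 0.46. In that comparison, 28.2% of the genes tested were at least as far from 0. The TGF-beta1 and Dll1 values could not be told apart. Intestinal cells exceeded TGF-beta1 by 0.84 (1.79-fold) and Dll1 by 0.84 (1.79-fold), and 94.9% of tested genes had a lower difference in each of these comparisons.

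Ptgds, the lipocalin-type synthase of prostaglandin D2, known from brain, read 5.30, 5.29, 5.44 and 5.30 for control, TGF-beta1, Dll1 and intestinal cells. These values lay just above the limit and spanned 0.15, so no array stood out. Ptges, the inducible membrane-bound synthase of prostaglandin E2, read 5.11 in control BMMCs, under the limit, and 5.34, 5.46 and 5.40 on the other arrays. Its steps between neighbouring values were all within the probe-set spread, while Dll1 minus control was 0.35 against a spread of 0.33. At such levels the floor of the scale compresses differences, and a change of the RNA could go unseen.

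Alox5, which encodes 5-lipoxygenase, read 12.64 in control BMMCs and 12.54 with TGF-beta1, then 12.09 with Dll1 and 11.07 in intestinal cells. Control and TGF-beta1 differed by less than the probe-set spread, the Dll1 value lay 0.45 under that of TGF-beta1 (spread 0.32), and the intestinal value lay 1.02 lower again (spread 0.40). A second Alox5 probe set read 8.50, 8.37, 8.32 and 7.60 in the same order. Both had their lowest value in intestinal cells, but the size differed, at -1.56 and -0.89 against control. For Dll1 minus control they gave -0.55 and -0.18, so the lower Dll1 value rests mainly on the brighter probe set. The brighter set came close to the highest value on the control array (13.06), and whether it was saturated there is not known.

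Alox5ap encodes FLAP, the membrane protein that presents arachidonic acid to 5-lipoxygenase. It read 11.03, 11.18, 11.03 and 11.17 for control, TGF-beta1, Dll1 and intestinal cells, a span of 0.15. Of 13328 genes above the limit on any array, 89.3% had a range at least as wide. The dimmer second probe set read 6.00, 6.00, 6.31 and 6.18. Alox5 and its partner thus differed on the intestinal array, where Alox5 was -1.56 from control and Alox5ap 0.14.

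Ltc4s, the synthase of leukotriene C4, read 6.49 in the control culture, 6.54 under TGF-beta1, 5.82 under Dll1 and 5.80 in intestinal cells. The arrays formed the same pairs as for Pla2g4a, 0.05 and 0.02 apart within the pairs. The Dll1 value lay 0.67 under control, past the probe-set spread of 0.33, and 5.39% of tested genes had a lower difference. The lower pair was near the floor, under the limits at the 99th percentile (6.00 for Dll1, 5.92 for intestinal cells). With that limit Dll1 minus control was -0.49. Intestinal minus control was -0.69 (1.62-fold). Lta4h, the hydrolase that makes leukotriene B4, read 8.57, 8.71, 8.47 and 8.22, and no step between neighbours passed the probe-set spread. Its widest gap, intestinal cells minus TGF-beta1, was -0.49, past the spread of 0.42 for those arrays. There, 25.9% of the genes tested were at least as far from 0.

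**Figure D2:**
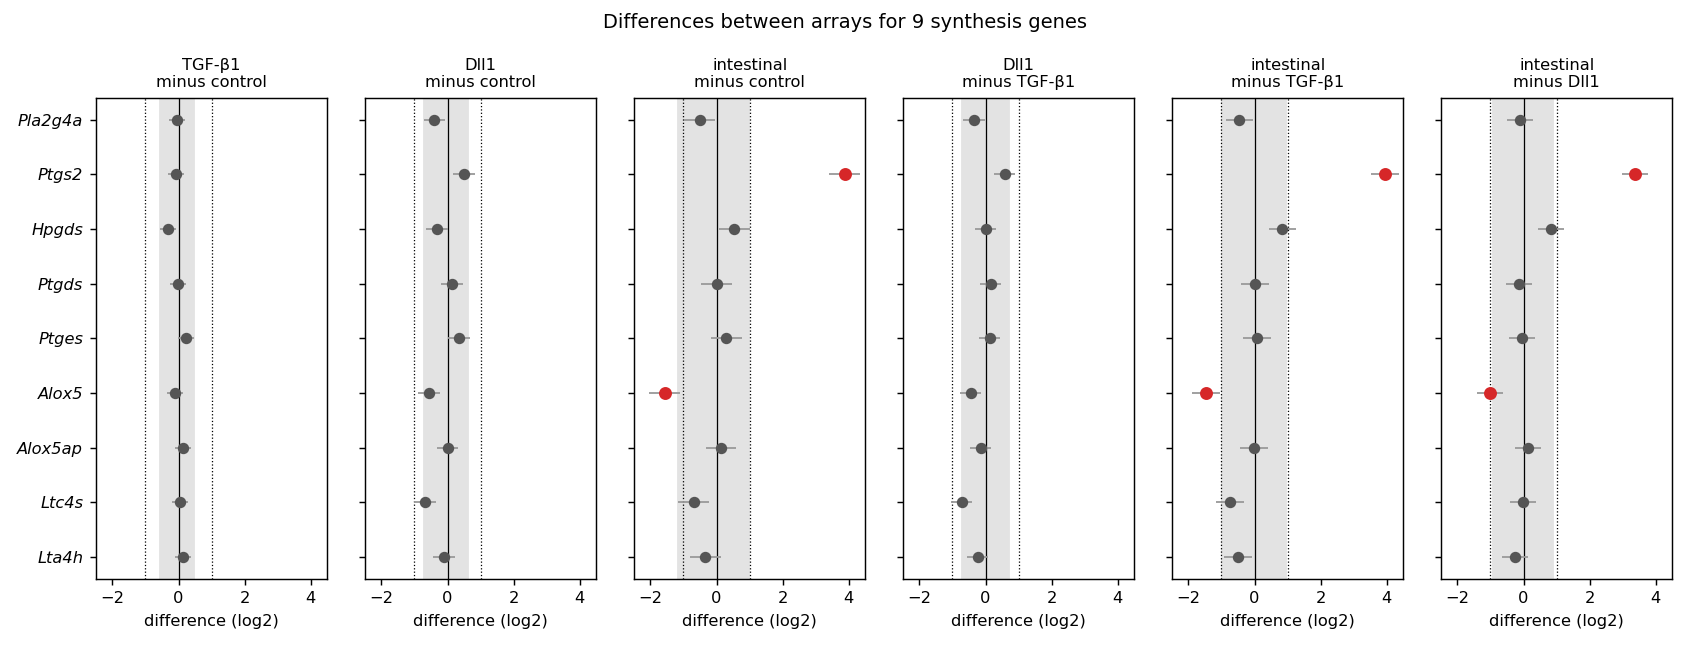
Each panel plots, for 1 pair of arrays, the measured log2 difference of the 9 genes (points; red where called), with bars of 1 standard deviation between probe sets, dotted lines at 2-fold and a grey band from the 5th to the 95th percentile of all genes tested. Ptgs2 and Alox5 are the only red points and occur in the 3 panels that involve intestinal cells.

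The comparison of TGF-beta1 with control asked what this cytokine did to the enzymes of cultured mast cells. No member was called, among 12023 genes of which 0.507% were called higher and 0.89% lower. The 9 differences ran from -0.31 (Hpgds) to 0.23 (Ptges), and 8 of the 9 were within the probe-set spread of 0.24. Hpgds, 1.24-fold lower, was the exception, and 24.4% of the genes tested were at least as far from 0. The median over the 9 was -0.01, beside -0.02 over all genes tested.

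With Dll1, again no member was called, where 1.64% of 12761 genes were called higher and 1.78% lower. Ltc4s (-0.67), Alox5 (-0.55) and Pla2g4a (-0.40) were lower than control by more than the probe-set spread of 0.33. In that order, 9.05%, 14.5% and 25.7% of the genes tested were at least as far from 0. Lta4h (-0.10) was within the spread, and Alox5ap gave -0.001 by its brighter and 0.31 by its dimmer probe set. Of the prostaglandin genes, Ptges was 0.35 higher than a control value under the limit, slightly past the spread. For Ptges, 31.1% of the genes tested were at least as far from 0. Ptgds (0.15) and Hpgds (-0.31) were within the spread, and Ptgs2 was under the limit on both arrays. The member median was -0.10 against 0.004 over all genes tested. Set against TGF-beta1, the Dll1 array also showed no called member (2.19% of 12650 genes higher, 1.9% lower), and Ltc4s had the largest difference, -0.72.

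In intestinal cells, 1 member was called higher and 1 lower than control, where 4.47% of 12722 genes were called higher and 6.74% lower. All 4 prostaglandin genes had differences above 0, although Ptgds (0.003) and Ptges (0.30) were within the spread. Of the 4 leukotriene genes, 3 had differences below 0, of which Alox5 and Ltc4s passed the spread of 0.46 and Lta4h (-0.34) did not. Of the genes tested, 4.65% were at least as far from 0 as Alox5, 20.2% as Ltc4s and 28.2% as Hpgds. The member median was 0.003 against -0.005 over all genes tested.

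Against TGF-beta1 (4.06% of 12551 genes higher, 4.56% lower) and against Dll1 (3.56% of 13035 higher, 4.14% lower), Ptgs2 was again called higher and Alox5 lower. These comparisons share the intestinal array, so they are not independent of the one with control. Alox5 was 2.76-fold lower than with TGF-beta1 and 2.02-fold lower than with Dll1 by its brighter probe set. The dimmer one gave -0.76 and -0.71, and with -0.89 against control it reached 2-fold in no comparison. The difference from Dll1 did not reach 2-fold with array medians subtracted (-0.99) or with the mean of both probe sets (-0.87).

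The array that held high Ptgs2 also held high immediate early genes, a class switched on fast by stimulation or handling, and Ptgs2 is itself known as an early-response gene. Of 22 such genes, 20 were at least 2-fold higher in intestinal cells than in control BMMCs and none lower, with a median of 3.39. Of all genes tested, 4.47% were higher and 6.74% lower. With Dll1 the count was 12 of 22, beside 1.64% of all genes, and the median 1.48, while Ptgs2 stayed under the limit there. With TGF-beta1 none was called and the median was -0.02. The part of tissue handling in the Ptgs2 level was not tested.

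Markers of other cells also moved with the intestinal array. The summed linear level of 11 macrophage and dendritic cell genes was 416 to 464 on the BMMC arrays and 3101 on the intestinal one, with Itgax (11.19), C1qa (7.24), C1qb (7.21) and Csf1r (6.55) called higher than control. Itgax alone made up most of that sum. C1qc (4.71) and Mrc1 (4.57) were under the limit on the intestinal array, and Cd68 read 6.50 there against 6.36 in control. The summed level of 12 intestinal epithelial genes was 430 to 541 and 1976, with 6 called higher, while the defining genes Epcam (4.98) and Vil1 (4.69) were under the limit. Most of that sum was Cdh1 (10.12), also called higher than control with TGF-beta1 (7.57 against 6.16). The summed level of 7 T and innate lymphoid cell genes was 2479 to 5284 and 5991, with 4 called higher and none lower. They were Gzma (10.33 against 4.62 in control), Cd3g (8.84 against 4.55), Nkg7 (8.70 against 5.23) and Cd3e (7.53 against 4.80). Cd3g and Cd3e were under the limit on the BMMC arrays. Most of the sum was Gzmb, which was not called and read 11.77 in intestinal cells and 11.70 in control. Of 6 B and plasma cell genes, Jchain was called higher (6.99 against 4.61 in control). Of 12 fibroblast and adherent cell genes, Pdgfrb (8.39 against 5.62) and Actn1 (6.38 against 5.20) were. Of 7 basophil genes, Mcpt8 and Cd69 were called higher, and Cd200r3 and Gata1 lower. Among the eosinophil genes Siglecf was called higher, and among the neutrophil genes Ly6g lower. Of all genes tested, 4.47% were called higher than control and 6.74% lower. The part of these other cells in the Ptgs2 and Hpgds levels was not tested, and in a bulk preparation fewer cells of a type cannot be told from less RNA per cell.

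Tuft cells are epithelial cells that are known to express several of these same enzymes. Of 10 tuft cell genes, 2 or 3 were above the limit on each array, and none was called in any comparison. Dclk1 (4.55), Trpm5 (5.06), Pou2f3 (4.40), Gnat3 (4.44), Chat (4.73) and Sh2d6 (4.77) were under the limit on the intestinal array. Il17rb went the other way, above the limit there (5.88) and under it on the BMMC arrays (4.66 to 4.85). Avil, at 10.33 to 11.02, was far above it on all 4 arrays, BMMCs included. On the Dll1 array the summed level of 10 neutrophil genes was 1767, against 309 to 375 on the others. That of 7 eosinophil genes was 4191, against 195 to 267. Against control, 5 neutrophil genes were called higher and 1, Ly6g, lower (5.35 against 6.40). Of the eosinophil genes 4 were called higher, and Prg2 (11.45) made up most of their sum. Siglecf (5.01) and Il5ra (4.92) were under the limit, and Ccr3 read 5.58 against 5.93 in control. Of 7 T and innate lymphoid cell genes, Gzma (7.92 against 4.62 in control), Nkg7 (7.34 against 5.23) and Il7r were called higher. Of 7 basophil genes Mcpt8 and Cd69 were, and of 12 fibroblast and adherent cell genes Actn1 (7.16 against 5.20) and Thbs1. None of these lists had a gene called lower. Of all genes, 1.64% were called higher and 1.78% lower. The part of neutrophils, eosinophils and other cells in the Dll1 values was not tested.

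**Figure D3:**
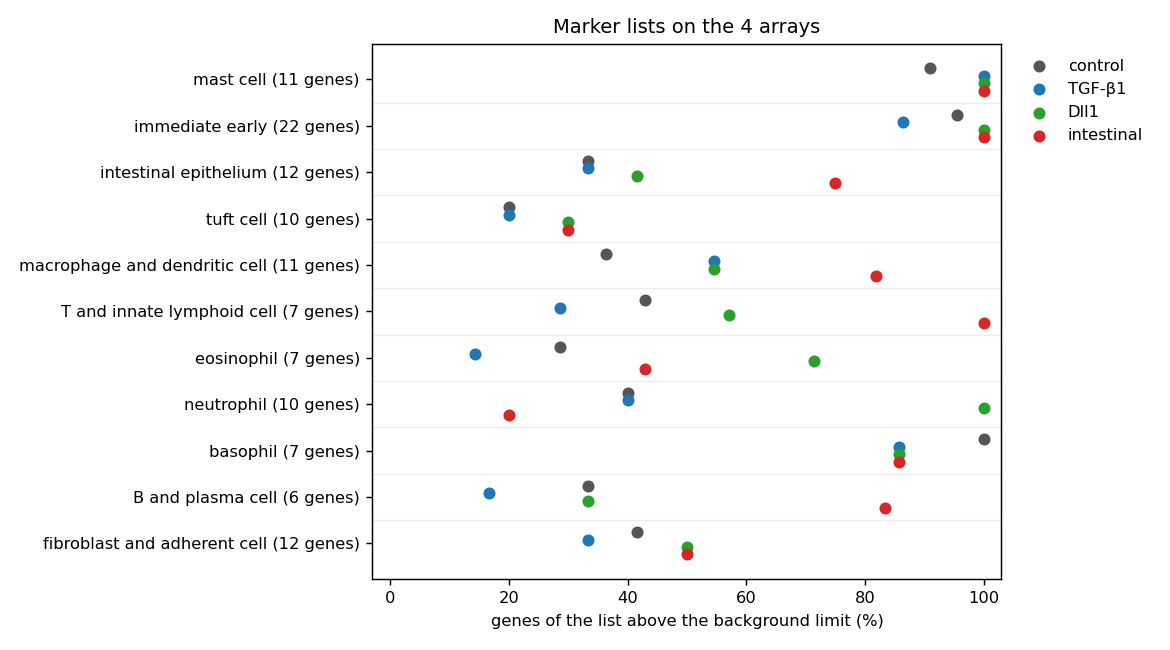
The plot gives, for each list of marker genes (rows), the percentage of its genes above the background limit on each of the 4 arrays (1 coloured point per array). All 7 T and innate lymphoid cell genes are above it on the intestinal array and all 10 neutrophil genes on the Dll1 array, while at most 3 of 10 tuft cell genes are above it on any array.

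Other steps of the pathway were read from 4 lists. The background for their counts is the share of all genes called against control. It was 4.47% higher and 6.74% lower in intestinal cells, 1.64% and 1.78% with Dll1, and 0.507% and 0.89% with TGF-beta1. Of 23 genes of arachidonate release and recycling, 17 were tested between intestinal cells and control, with 1 called higher and 4 lower and a median over those tested of -0.04. Lpcat3, which puts arachidonate back into phospholipids, was 3.23-fold lower in intestinal cells (9.07 against 10.76). Pla2g7, the hydrolase of platelet-activating factor, was 3.18-fold lower (7.39 against 9.06), the lysosomal phospholipase Pla2g15 2.72-fold lower (6.94 against 8.38) and the desaturase Fads2 2.04-fold lower (10.09 against 11.12). The phospholipase Plaat3 was 2.64-fold higher (6.60 against 5.20). Pla2g7 was also 2.85-fold lower with TGF-beta1 (7.55), and Fads2 was 2.24-fold lower with Dll1 (9.96). Of the secretory phospholipases, Pla2g2d, Pla2g2e, Pla2g3 and Pla2g12a were above the limit on all 4 arrays, at 5.15 to 6.11, Pla2g2a (5.72) and Pla2g10 (5.11, barely past it) on the intestinal array alone, and Pla2g5 and Pla2g2f on none.

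Among 10 other genes of prostanoid synthesis, 6 were tested and 1 was called. Tbxas1, the thromboxane synthase, read 10.07 in the control culture, 9.98 under TGF-beta1, 9.48 under Dll1 and 7.58 in intestinal cells. It was thus lowest in intestinal cells, 5.61-fold under control. The widely expressed synthases of prostaglandin E2, Ptges2 (6.04 to 6.59) and Ptges3 (5.79 to 6.10), were above the limit on every array, and neither was called. The list had no called gene with TGF-beta1 or Dll1.

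Of 16 other lipoxygenase and leukotriene genes, 10 were tested between intestinal cells and control, with 2 called higher and 2 lower. Alox15, a lipoxygenase also known from eosinophils and macrophages, read 5.38 in the control culture, 5.40 under TGF-beta1, 7.37 under Dll1 and 7.80 in intestinal cells. It was 3.97-fold higher with Dll1, the array with the higher sums of eosinophil and neutrophil genes. In intestinal cells, where those sums were 267 and 309, it was 5.35-fold higher. The part of other cells in the Alox15 levels was not tested. Alox8 read 7.27, 6.15, 7.05 and 5.29, called lower than control with TGF-beta1 (2.17-fold) and in intestinal cells (3.95-fold) and within the spread with Dll1. Of known binding partners of 5-lipoxygenase, Cotl1 was 2.21-fold higher in intestinal cells (10.30 against 9.15) and Dicer1 3.50-fold lower (7.55 against 9.36). The microsomal transferase Mgst2, which can also make leukotriene C4, read 6.52, 6.80, 7.23 and 5.77, and was 2.74-fold lower in intestinal cells than with Dll1.

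Of 14 genes of eicosanoid transport and breakdown, none was called with TGF-beta1 and the same 2 genes were lower with Dll1 and in intestinal cells. These were Slco3a1, an organic anion carrier that takes up prostaglandins (6.67 in control, 5.54 with Dll1, 5.41 in intestinal cells), and the cytochrome P450 gene Cyp4f13 (6.98, 5.96 and 5.91). Abcc1, which exports leukotriene C4, read 7.58, 7.15, 8.01 and 8.17 for control, TGF-beta1, Dll1 and intestinal cells. Hpgd, which inactivates prostaglandins, was under the limit on every array.

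**Figure D4:**
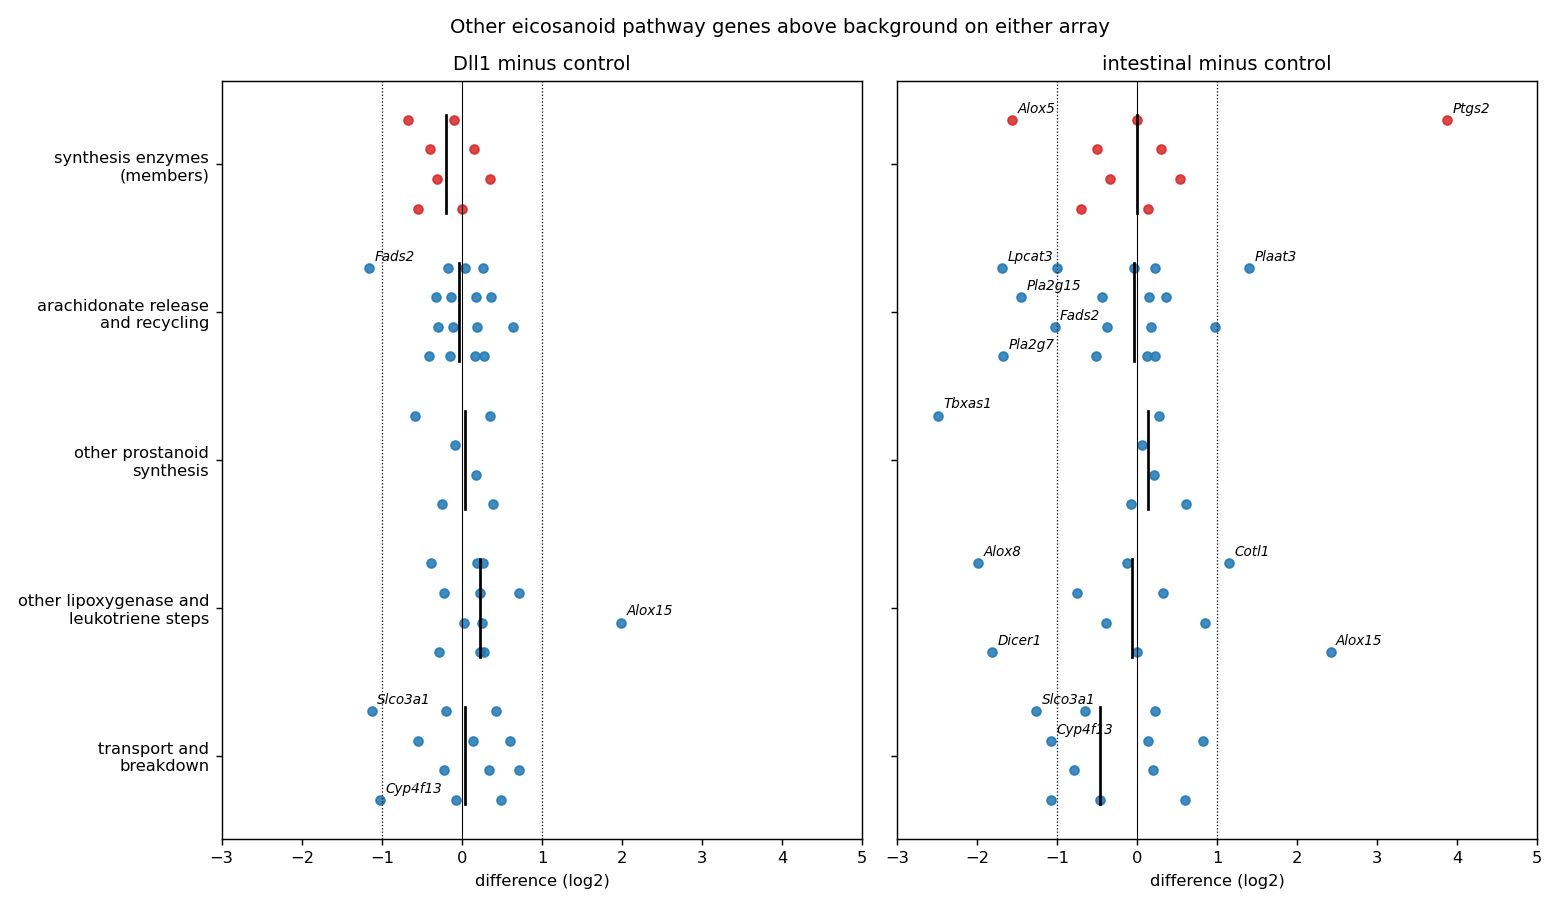
Log2 differences of Dll1 (left) and intestinal cells (right) from control, for members and 4 pathway lists (rows; vertical spread within a row has no meaning), 1 point per gene above the limit on either array, with black bars at the medians and dotted lines at 2-fold. Names mark called genes. On the right, Tbxas1 is farthest below 0 and Ptgs2 farthest above it.

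The profile of Ptgs2 over the 4 arrays, with values under the limit raised to it and centred on their mean, was set against those of 13328 genes. It was the only member whose range reached 2 on this scale. The smallest root mean square differences were those of Adamdec1 (0.01), Ltbp4 (0.03) and Pde3a (0.07). Each of them was under the limit on the 3 BMMC arrays and read 8.43, 8.52 and 8.29 in intestinal cells. With 4 arrays, such likeness says little more than that a gene was measured above background in intestinal cells alone, at a similar level.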

How the data were processed

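RNA of 4 groups, with 1 array each, was measured after amplification of 2 ng of RNA, per the labels' protocols. The authors deposited log2 values of 33793 probe sets. The software, normalization and genome build behind them are stated in no label or header. Sorted values of any 2 arrays differed by at most 0.25, and no further normalization was applied. Arrays carry no read depth, and their number limits the precision.

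Of the probe sets, 23521 had 1 symbol in the platform annotation, 1814 several and 8458 none listed. Where a gene had several probe sets, that with the highest mean was used. Differences, background limits and calls were computed over all genes with Python 3.11.15, numpy 2.4.6 and pandas 2.3.3, and the call rule was tested on simulated data. Named genes were the members, called genes of the pathway lists, the 3 nearest profiles of any member with a range of at least 2, and markers needed to describe a list. Members and lists were chosen with earlier results of these data known. Alternatives were 2 other normalizations, other background limits and fold thresholds, the mean of probe sets and an offset of 16 subtracted. Protein sequences were not used here.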

Additional observations from a re-analysis of the deposited data

How the results depend on the processing

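Of 324 member differences recomputed under 6 alternatives, 313 stayed within the probe-set spread of the value reported, 11 moved and none of those called reversed. The moved values were all of Ptgs2 except 1 of Ptges, and they came with other background limits or the offset. With the limit at the 99th percentile, Ptgs2 in intestinal cells minus control was 2.51, and it was 3.88 with no limit and 4.17 with an offset of 16 subtracted. The count of members lower in intestinal cells than with Dll1 went from 1 to 0 with array medians subtracted and with probe sets averaged, since Alox5 sat at the threshold. At 1.5-fold, members lower with Dll1 numbered 1 against control and 1 against TGF-beta1 (Ltc4s), where 7.47% and 7.21% of all genes were lower. They numbered 2 for intestinal cells minus control and 2 minus TGF-beta (Alox5 and Ltc4s; 14.9% and 11.5% of all genes). Members higher at 1.5-fold numbered 2 for intestinal cells minus TGF-beta and 2 minus Dll1 (Ptgs2 and Hpgds; 9.11% and 9.87% of all genes). At 3-fold, members lower numbered 0 in each of the intestinal comparisons. No paired analysis was possible because each group had 1 array. Leaving out an array would remove its group, so it was not run. Signal over background limits what can be seen for Ptgds, Ptges and Ltc4s, which lay near the floor.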
